A study of Homo sapiens with 6 samples.

Results

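The genes described here encode the machinery of DNA replication: E2F factors and other regulators of entry into S phase, the proteins that license and fire origins, the polymerases and fork factors, enzymes that make deoxynucleotides, and factors that handle chromatin and histone mRNA. They were chosen by name, as 31 symbols matched to the rows of a gene count table by Ensembl identifier without its version. A row was found for 30 of the 31, out of 57820 rows in all, and UHRF1 was not analysed here. All 30 passed the filter on low counts.

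The table holds total RNA libraries from Cal27, an epithelial cell line grown from a human tongue squamous carcinoma, in 3 groups of 2 replicates. CRNN cells had received lentivirus with a construct that overexpresses cornulin, a protein of differentiating squamous epithelium, and GFP cells had received lentivirus with a GFP control vector. Both were transduced with 8 µg/ml polybrene and harvested at 48 h. Untreated cells are labelled wild type (WT), with no polybrene or harvest time given, so a comparison with them cannot separate vector, polybrene and time. All 6 libraries carry batch 1, and the labels do not say whether the transduced cells were selected or cloned. Nor do they say that replicates came from separate cultures, so p-values measure the spread between these libraries, which may be technical.

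Replication starts from origins that are licensed in G1, when CDC6 and CDT1 help to load the MCM2 to MCM7 ring onto DNA. At the start of S phase, kinases and the factor MCM10 turn this ring into an active helicase together with CDC45 and the GINS complex, and the polymerases follow. E2F transcription factors, held back by the RB family until cyclin-dependent kinases act, drive transcription of many of these genes in proliferating cells. Messages of genes for S phase and for mitosis peak at different points of the cell cycle.

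The letters of an E2F site were searched in the promoters of these genes, because E2F control is what many of them have in common. RefSeq promoter sequences of the build GRCh38.p14 were found for 27 of the 30 genes, and all but CCNE2, MCM4 and MCM5 were among them. The motif was TTTNNCGC, where each N was C or G, on either strand, in the 250 bases before the start, and overlapping matches counted as 1 site. It was present in 13 of 27 promoters (48.1%), against 474 of the 11050 promoters of tested genes (4.29%). Of other genes of replication, 4 of 37 promoters held it (10.8%), and of mitotic genes 1 of 19 (5.26%). The letters TTTGAA, known from the CHR element of late cell cycle genes, were in 1 of 27 promoters here (3.7%) and in 12 of 19 promoters of mitotic genes (63.2%), against 8.53% for tested genes. The letters CCAAT were in 17 of 27 promoters (63.0%), in 18 of 37 of other replication genes (48.6%) and in 17 of 19 of mitotic genes (89.5%), against 34.7% for tested genes. A match is a description of the letters and not a measured binding site. The 4 promoters below held the most sites, with ties taken in the order of the gene list and matches in capitals. They span positions -250 to -1 from the start, read 5′ to 3′ on the minus strand, and lie at chr20:33686386-33686635 for E2F1, chr2:135876444-135876693 for MCM6, chr1:23531234-23531483 for E2F2 and chr3:48188418-48188667 for CDC25A.
E2F1: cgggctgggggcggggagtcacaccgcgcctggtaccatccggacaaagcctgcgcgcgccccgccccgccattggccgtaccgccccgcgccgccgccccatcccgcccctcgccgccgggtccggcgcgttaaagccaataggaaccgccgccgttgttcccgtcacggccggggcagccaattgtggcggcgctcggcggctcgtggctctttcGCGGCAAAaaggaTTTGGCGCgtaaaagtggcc
MCM6: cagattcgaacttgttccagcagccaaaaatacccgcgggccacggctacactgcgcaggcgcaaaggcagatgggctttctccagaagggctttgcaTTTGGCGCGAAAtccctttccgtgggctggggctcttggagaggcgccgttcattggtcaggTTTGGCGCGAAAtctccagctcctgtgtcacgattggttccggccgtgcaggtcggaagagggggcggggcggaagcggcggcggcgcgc
E2F2: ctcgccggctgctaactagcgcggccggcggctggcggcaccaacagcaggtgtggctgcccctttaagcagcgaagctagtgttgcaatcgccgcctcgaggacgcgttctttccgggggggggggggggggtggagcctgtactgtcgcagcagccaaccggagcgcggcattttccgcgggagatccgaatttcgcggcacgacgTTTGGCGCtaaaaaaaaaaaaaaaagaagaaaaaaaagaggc
CDC25A: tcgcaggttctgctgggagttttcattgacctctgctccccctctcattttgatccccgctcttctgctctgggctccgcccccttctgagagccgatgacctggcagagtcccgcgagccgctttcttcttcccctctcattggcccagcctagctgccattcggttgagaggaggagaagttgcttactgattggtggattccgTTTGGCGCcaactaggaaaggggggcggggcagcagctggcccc
E2F1 held 2 sites close to the start, at -33 and -20. MCM6 held 2 sites farther away, at -152 and -90, each made of overlapping matches on both strands. E2F2 and CDC25A held 1 each, at -42 and -44. MCM7 also held 2 sites and is not shown, because its window lies inside the annotated gene.

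Library totals ranged from 11817105 to 28041227 counts, and the 30 genes took between 0.320% and 0.385% of a library's counts. Each of them had between 53 and 14850 counts in every library. CRNN itself had 964 and 1030 CPM (counts scaled by library size with TMM factors) in the CRNN libraries, 3.06 and 2.55 CPM in GFP, against 3.51 and 2.08 CPM without treatment. All 9 squamous epithelial markers were above 1 CPM in every library, with a summed level of 4300 to 6090 CPM. Single markers differed in untreated replicate 1, with KRT17 at 1770 CPM against 67.6 to 182 CPM elsewhere. CDH1 was at 281 CPM there against 73.3 to 116 CPM elsewhere, while KRT14 had its lowest level there, 64.6 CPM. Summed markers of fibroblasts lay between 3.96 and 9.1 CPM and those of immune cells between 5.92 and 9.47 CPM. The 4 endothelial markers in the table summed to between 8.75 and 14.2 CPM, except 53.4 CPM in untreated replicate 1, nearly all of it CDH5. Untreated replicate 1 stood apart in other ways as well: 23 of 24 mitotic genes were at their lowest there, beside 26.3% of all tested genes. In GFP replicate 1 the level of a gene relative to the other libraries followed its GC content (Spearman's rho 0.50 across 15932 genes, which are not independent replicates), and in GFP replicate 2 rho was -0.31. Values without one of these libraries are given for some described differences, and their absence elsewhere does not mean that a difference stayed the same.

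Replication genes were present in all 6 libraries at levels that differed far more between genes than between groups. The plot of levels per length shows this, with CPM divided by the length of the canonical transcript in kb. Of the six-part MCM ring, MCM7 had the highest level per length, 209 ± 6.57 CPM per kb in CRNN, 217 ± 69.7 in GFP and 229 ± 0.686 in untreated cells (SD, n = 2 each). MCM2, MCM4 and MCM5 followed with means over all libraries of 87.4, 93.6 and 89.5 CPM per kb, and their order changed between libraries. MCM3 came next at 61.8 CPM per kb and MCM6 was lowest at 29.2 CPM per kb, and this held in each of the 6 libraries. The proteins form a ring with 1 copy of each, while the messages of MCM7 and MCM6 were between 5.07-fold and 11.4-fold apart per length. Both ends of that range came from the GFP libraries, and the other libraries lay between 6.72-fold and 8.25-fold. PCNA, the sliding clamp of the polymerases, was the other abundant message, with 197 ± 24.1 CPM per kb in CRNN, 154 ± 3.35 in GFP and 181 ± 6.19 in untreated cells (SD, n = 2 each). E2F1 exceeded E2F2 per length in every library, by 4.55-fold to 8.11-fold. CCNE1 and CCNE2, the cyclins E, were close to each other at 4.04 and 3.48 CPM per kb over all libraries and changed order between libraries. Exons of CCNE2 overlap those of INTS8, and the effect of this on its level per length was not tested. Among the GINS subunits the order was GINS2, GINS1, GINS3 in all 6 libraries. RRM1 and RRM2, the large and small subunits of ribonucleotide reductase, stood at 61.1 and 55.0 CPM per kb, and in GFP replicate 1 their order was turned round.

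**Figure D1:**
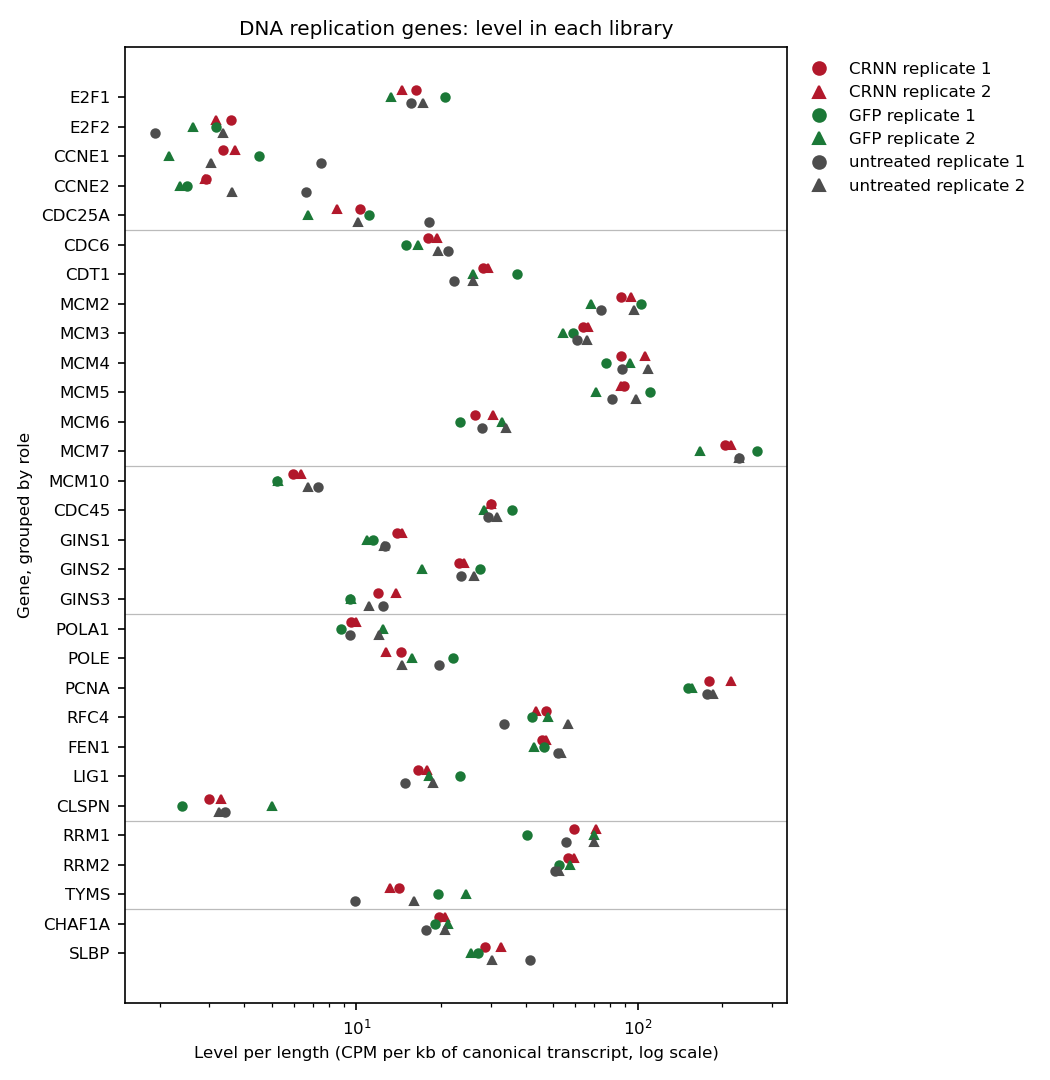
Level of each replication gene (rows, grouped by role) in each library, as CPM per kb of canonical transcript on a log axis; circles are replicate 1 and triangles replicate 2. MCM7 and PCNA lie at the right in every library, E2F2, the cyclins E and CLSPN at the left, and the colours of a gene mostly intermix.

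No replication gene passed the test in any of the 3 comparisons. In CRNN against GFP, which asks what differs with the insert, 0 of 30 genes rose and 0 fell by edgeR's quasi-likelihood test with Benjamini-Hochberg adjustment over 16396 genes. Among all genes tested, 0.0183% rose and 0% fell. None of the 30 had an unadjusted p under 0.05, which 1.49% of all genes reached as higher and 2.9% as lower, and DESeq2 and limma-voom also called 0 of the 30. The log2 fold changes ran from -0.68 to 0.43 with a median of 0.07, beside a median of 0 over all tested genes, and 19 of 30 were above 0, beside 49.9% of all genes. The libraries did not overlap for 9 genes that were higher in CRNN and 3 that were lower, beside 19.4% and 18.7% of all genes.

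In CRNN against untreated cells 0 of 30 genes rose and 0 fell (edgeR, adjusted p under 0.05), where 0.0061% of all genes rose and 0% fell. The log2 fold changes ran from -0.81 to 0.36 with a median of -0.03, beside -0.01 for all tested genes, and 13 of 30 were above 0, beside 49.1% of all genes. At an unadjusted p under 0.05 CCNE2 alone was lower and 0 genes were higher, beside 2.96% and 1.52% of all genes. The libraries did not overlap for 3 genes that were higher in CRNN and 6 that were lower, beside 18.7% and 18.4% of all genes.

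In GFP against untreated cells again 0 rose and 0 fell, as for all genes (0% called each way). The log2 fold changes ran from -1.07 to 0.77 with a median of -0.11, beside -0.01 for all tested genes, and 12 of 30 were above 0, beside 48.9% of all genes. At an unadjusted p under 0.05 TYMS was higher and CCNE2 lower, beside 4.03% and 2.9% of all genes. The libraries did not overlap for 2 genes that were higher in GFP and 9 that were lower, beside 16.2% and 15.5% of all genes. DESeq2 and limma-voom called 0 of the 30 against untreated cells as well. The comparisons share libraries, so their values are not independent of each other.

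The intervals show how large a difference these libraries could still hold. The 95% interval of the log2 fold change lay within -1 and 1, that is within a 2-fold difference either way, for 25 of 30 genes in CRNN against GFP, 26 in CRNN against untreated cells and 24 in GFP against untreated cells. Over all tested genes this share was 40.1%, 40% and 35.1%. The median level of the 30 genes was 5.93 log2 CPM, above the 3.41 of all tested genes. Why their intervals were narrower was not tested. In bulk RNA a smaller share of cells in S phase and less message per cell cannot be told apart.

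**Figure D2:**
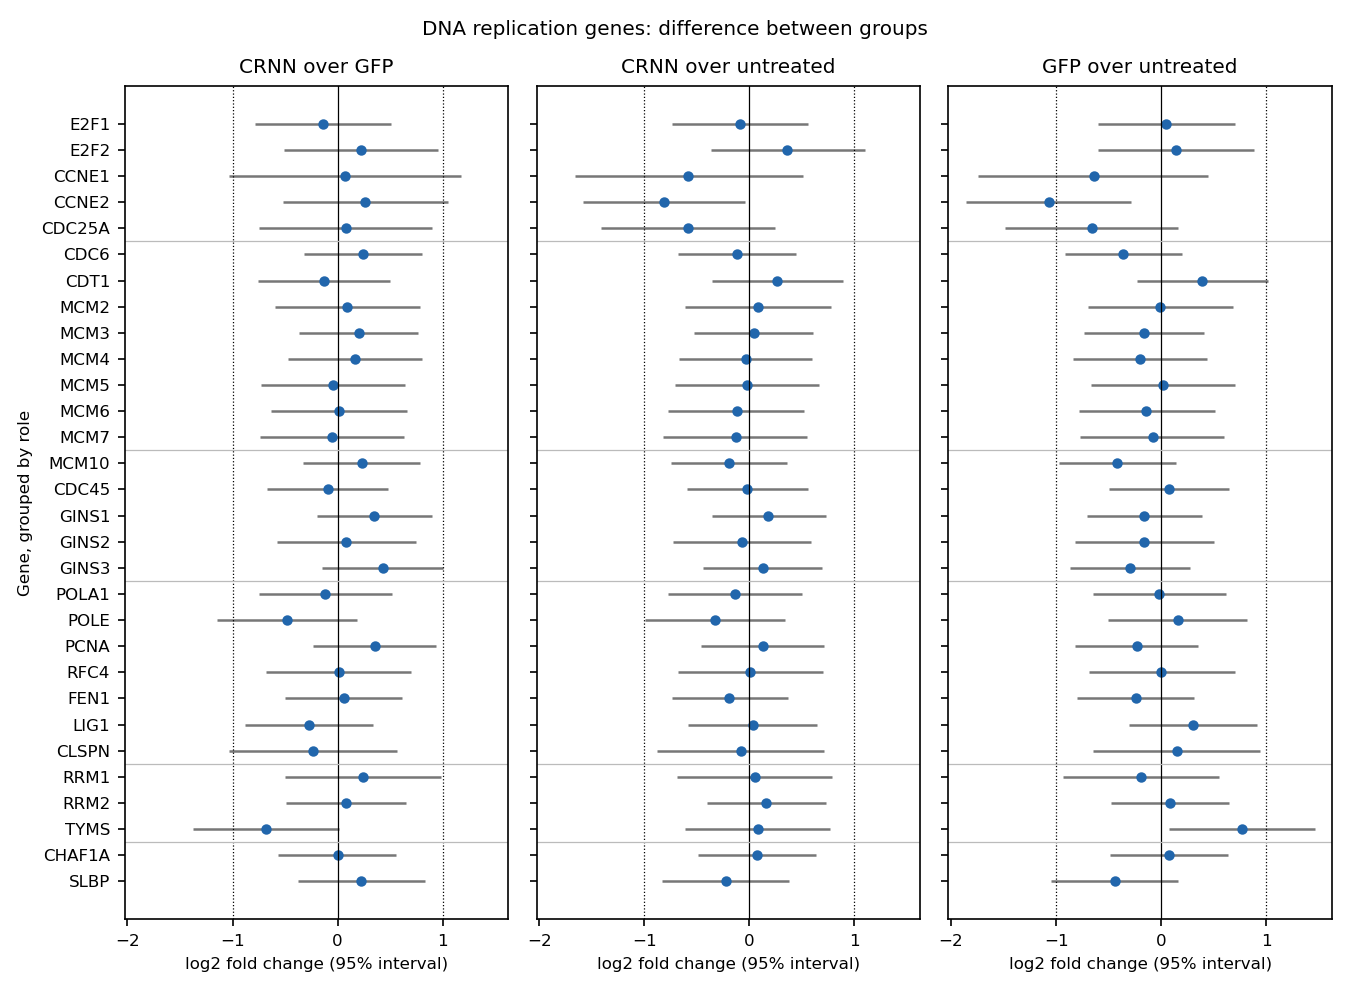
Log2 fold change of each replication gene (points) with its 95% interval (bars) from the edgeR fit of all 6 libraries, n = 2 per group, for CRNN over GFP, CRNN over untreated and GFP over untreated; dotted lines mark a 2-fold difference. Nearly all bars cross 0, and in the panels against untreated cells CCNE2 lies farthest to the left.

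Of the E2F factors and G1/S regulators, the cyclins E and CDC25A varied most, and their high values came from 1 library. CCNE2, a cyclin E that activates CDK2 for S phase entry (ENSG00000175305.12; GRCh38, chromosome 8, 94879770 to 94896678, minus strand), had 7.8 and 7.76 CPM in CRNN, 6.65 and 6.31 CPM in GFP, and 17.6 and 9.65 CPM in untreated cells. Both transduced groups were below both untreated libraries, and untreated replicate 1 was far above replicate 2. Its log2 fold change was -0.81 (SE 0.34, 95% interval -1.58 to -0.04, adjusted p = 0.989) for CRNN over untreated and -1.07 (SE 0.35, -1.86 to -0.29, adjusted p = 0.711) for GFP over untreated, by edgeR. Without untreated replicate 1 these were -0.31 and -0.59, with an adjusted p of 1 for each by edgeR. Without untreated replicate 2 CCNE2 passed, at -1.18 (edgeR, adjusted p = 0.0402) and -1.46 (edgeR, adjusted p = 0.0164), in fits that called 957 and 966 of all genes. Exons of INTS8 on the opposite strand overlap 1629 bases of CCNE2, and the strand setting of the counting is not given in the sources used here. INTS8 had 39.7 and 43.9 CPM in CRNN, 29.2 and 44.1 in GFP, with 33.7 and 51.2 in untreated cells. Whether the overlap with INTS8 raised or lowered the counts of CCNE2 was not tested.

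CCNE1, the other cyclin E (ENSG00000105173.9; chromosome 19, 29811991 to 29824312, plus strand), had 6.57 and 7.22 CPM in CRNN, 8.83 and 4.23 CPM in GFP, and 14.6 and 5.92 CPM in untreated cells. The groups overlapped. CDC25A, the phosphatase that removes inhibitory phosphates from CDK2 (ENSG00000164045.7; chromosome 3, 48157146 to 48188417, minus strand), had 39.4 and 32.9 CPM in CRNN, 42.6 and 25.8 CPM in GFP, and 69.7 and 38.7 CPM in untreated cells. It too was highest in untreated replicate 1 and lowest in GFP replicate 2, and the other untreated library lay within the range of the transduced cells. Against untreated cells the log2 fold changes were -0.58 (SE 0.48) for CCNE1 and -0.58 (SE 0.36) for CDC25A in CRNN, and -0.64 (SE 0.48) and -0.66 (SE 0.36) in GFP. Leaving out untreated replicate 1 gave 0.22 and -0.10 in CRNN, and 0.14 and -0.20 in GFP. Leaving out untreated replicate 2 gave -1.08 and -0.94 in CRNN, and -1.16 and -1.04 in GFP. The values for GFP over untreated also moved with the GFP libraries, to -1.29 and -1.08 without GFP replicate 1 and to -0.24 and -0.37 without GFP replicate 2.

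E2F1 and E2F2 did not share this pattern. E2F1, an activator of S phase genes (chromosome 20, 33675477 to 33686385, minus strand), had 44 and 38.9 CPM in CRNN, 55.4 and 35.8 CPM in GFP, and 41.9 and 46.4 CPM in untreated cells. Its groups overlapped in every comparison, with log2 fold changes of -0.14 for CRNN over GFP, -0.09 for CRNN over untreated and 0.05 for GFP over untreated (SE 0.29 each). For CRNN over GFP it was 0.22 without GFP replicate 1 and -0.39 without GFP replicate 2. E2F2, a related activator, had 18.7 and 16.5 CPM in CRNN, 16.5 and 13.6 CPM in GFP, and 9.97 and 17.5 CPM in untreated cells. It was lowest in the library where the cyclins E were highest. Its log2 fold change was 0.36 (SE 0.32) for CRNN over untreated, 0.02 without untreated replicate 1 and 0.82 without untreated replicate 2.

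**Figure D3:**
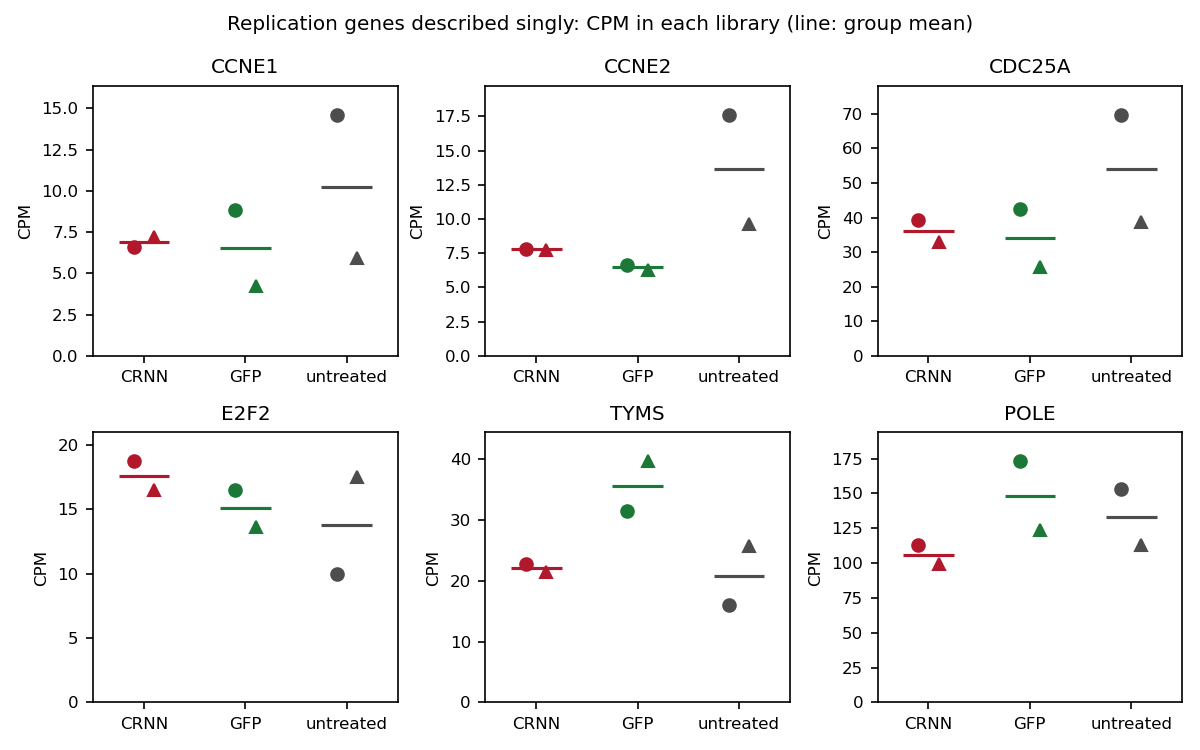
CPM of CCNE1, CCNE2, CDC25A, E2F2, TYMS and POLE in each library (circles replicate 1, triangles replicate 2; lines are group means, n = 2; axes start at 0), genes picked after their values were seen. Untreated replicate 1 is the highest library for CCNE1, CCNE2 and CDC25A and the lowest for E2F2 and TYMS.

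Origin licensing genes had small differences in every comparison, and 0 of 8 passed. CDC6, which loads the MCM ring together with the origin recognition complex, had 81.9 and 88.8 CPM in CRNN, 68.5 and 75.7 CPM in GFP, and 96.2 and 88.8 CPM in untreated cells. Both GFP libraries were below the other 4, with a log2 fold change of 0.24 (SE 0.25) for CRNN over GFP and -0.36 (SE 0.25) for GFP over untreated. CDT1, its partner in loading, ran the other way, with 75.3 and 78.2 CPM in CRNN, 98.9 and 69.0 CPM in GFP, and 59.1 and 68.9 CPM in untreated cells. The 2 GFP libraries enclosed the CRNN values, and the log2 fold change was 0.39 (SE 0.28) for GFP over untreated, 0.10 without GFP replicate 1 and 0.61 without GFP replicate 2. MCM3 had 197 and 204 CPM in CRNN, 181 and 167 CPM in GFP, and 187 and 202 CPM in untreated cells, a span of 1.22-fold between the highest and the lowest library. MCM7 had 504 and 527 CPM in CRNN, 656 and 413 CPM in GFP, and 567 and 565 CPM in untreated cells. The GFP libraries lay on either side of all others, and the log2 fold change of MCM7 for CRNN over GFP was 0.33 without GFP replicate 1 and -0.32 without GFP replicate 2. The 8 licensing genes had medians of 0.05 in CRNN over GFP, -0.03 in CRNN over untreated and -0.11 in GFP over untreated. MCM2 had 300 and 325 CPM in CRNN, 353 and 233 CPM in GFP, and 255 and 335 CPM in untreated cells. MCM6 had 98.9 and 114 CPM in CRNN, 87.5 and 124 CPM in GFP, and 105 and 128 CPM in untreated cells. GFP replicate 1 was thus the highest library for MCM2 and the lowest for MCM6. MCM4 ranged from 315 to 443 CPM and MCM5 from 245 to 382 CPM. MCM2, MCM4, MCM5 and MCM6 had log2 fold changes between -0.20 and 0.17 in all 3 comparisons.

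Among the genes of helicase activation, GINS3 and GINS1 gave the largest positive values for CRNN over GFP, and 0 of 5 passed. GINS3 (chromosome 16, 58295080 to 58406147, plus strand) had 26.2 and 30.3 CPM in CRNN, 20.9 and 21.1 CPM in GFP, and 27.2 and 24.5 CPM in untreated cells. GINS1 (chromosome 20, 25391008 to 25452700, plus strand) had 46.4 and 48.1 CPM in CRNN, 38.2 and 36.2 CPM in GFP, and 41.8 and 41.4 CPM in untreated cells. For both, the CRNN libraries were above the GFP libraries without overlap, while only GINS1 was also apart from untreated cells. The log2 fold changes for CRNN over GFP were 0.43 (SE 0.25, 95% interval -0.15 to 1.00) and 0.35 (SE 0.24, -0.20 to 0.90), and neither passed (edgeR, adjusted p = 0.999 each). MCM10, a scaffold that helps to start the helicase, had 27.0 and 28.9 CPM in CRNN, 23.8 and 24.0 CPM in GFP, and 33.2 and 30.6 CPM in untreated cells. Its groups were ordered GFP, CRNN, untreated with no overlap, and its largest log2 fold change was -0.42 (SE 0.25) for GFP over untreated. CDC45, which joins the MCM ring in the active helicase, ranged only from 53.5 to 67.1 CPM, and GINS2 from 45.0 to 71.9 CPM, with both ends of each in the GFP libraries.

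Polymerases and fork factors gave small differences in both directions. POLE, the catalytic subunit of the leading strand polymerase (ENSG00000177084.12; chromosome 12, 132623753 to 132687376, minus strand), had 113 and 99.3 CPM in CRNN, 173 and 124 CPM in GFP, and 153 and 113 CPM in untreated cells. Both CRNN libraries were below the other 4, though untreated replicate 2 was close to them. The log2 fold change was -0.48 (SE 0.29, 95% interval -1.15 to 0.18, adjusted p = 0.999) for CRNN over GFP by edgeR, -0.21 without GFP replicate 1 and -0.68 without GFP replicate 2. PCNA had 230 and 273 CPM in CRNN, 193 and 199 CPM in GFP, and 225 and 236 CPM in untreated cells. Its GFP libraries were below all others, and the log2 fold change for CRNN over GFP was 0.36 (SE 0.26). CLSPN, which encodes claspin, an adaptor of the replication checkpoint, had 25.4 and 28.1 CPM in CRNN, 20.4 and 42.6 CPM in GFP, and 29.1 and 27.7 CPM in untreated cells. The GFP libraries held both its highest and its lowest value. Its log2 fold change for CRNN over GFP was -0.66 without GFP replicate 1 and 0.42 without GFP replicate 2, against -0.23 with both. RFC4, a subunit of the clamp loader, was lowest in untreated replicate 1 at 45.6 CPM and highest in untreated replicate 2 at 77.1 CPM. FEN1, the flap nuclease of Okazaki fragments, ranged from 86.3 to 108 CPM and LIG1, the ligase that seals them, from 46.5 to 72.9 CPM. POLA1, the catalytic subunit of the primase polymerase, ranged from 48.4 to 68.2 CPM, with both ends in the GFP libraries.

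Of the enzymes of nucleotide synthesis, TYMS differed most. TYMS, which makes thymidylate (ENSG00000176890.11; chromosome 18, 657653 to 673578, plus strand), had 22.8 and 21.4 CPM in CRNN, 31.5 and 39.6 CPM in GFP, and 16 and 25.7 CPM in untreated cells. Both GFP libraries were above the other 4, and the CRNN values lay between the untreated ones. The log2 fold change was -0.68 (SE 0.30, 95% interval -1.38 to 0.01, adjusted p = 0.999) for CRNN over GFP by edgeR. It was -0.83 without GFP replicate 1 and -0.49 without GFP replicate 2. For GFP over untreated it was 0.77 (SE 0.31, 0.07 to 1.46, adjusted p = 0.711) by edgeR, 0.44 without untreated replicate 1 and 1.14 without untreated replicate 2 (edgeR, adjusted p = 0.0746). Exons of ENOSF1 on the opposite strand overlap 967 bases of TYMS, and how reads there were assigned is not given in the sources used here. ENOSF1 had 52.5 and 44.9 CPM in CRNN, 68.1 and 52.4 CPM in GFP, and 49.2 and 60.8 CPM in untreated cells. Whether the overlap with ENOSF1 raised or lowered the counts of TYMS was not tested. RRM2, the subunit of ribonucleotide reductase that limits its activity, was the steadiest of all 30 genes, with 185 and 194 CPM in CRNN, 171 and 187 CPM in GFP, and 166 and 172 CPM in untreated cells. RRM1 had 187 and 223 CPM in CRNN, 127 and 220 CPM in GFP, and 175 and 220 CPM in untreated cells, so that GFP replicate 1 alone was low.

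For chromatin at the fork and histone mRNA, 2 genes were measured. CHAF1A, the large subunit of the chromatin assembly factor that deposits histones behind the fork, ranged from 59.6 to 71.0 CPM, a span of 1.19-fold. SLBP, which binds the stem-loop of histone mRNA, had 51.9 and 59.4 CPM in CRNN, 49.1 and 46.3 CPM in GFP, and 74.8 and 55.1 CPM in untreated cells. It was highest in untreated replicate 1, as the cyclins E were, and its log2 fold change for GFP over untreated was -0.44 (SE 0.27, 95% interval -1.05 to 0.16). It was -0.23 without untreated replicate 1 and -0.66 without untreated replicate 2.

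In untreated replicate 1, where mitotic messages were low, the replication genes went both ways. The map of group levels gives the mean log2 CPM, centred per gene, of each role in each library. Over the 30 genes this mean was -0.03 and 0.03 in CRNN, 0.00 and -0.11 in GFP, with 0.03 and 0.08 in untreated replicates 1 and 2. For the 47 other replication genes tested it was 0.04 and 0.14 in CRNN, -0.09 and 0.00 in GFP, with -0.22 and 0.13 in untreated cells. Untreated replicate 1 was thus their lowest library on average, and 20 of the 47 (42.6%) were lowest there, beside 26.3% of all tested genes. For 24 mitotic genes it was 0.21 and 0.25 in CRNN, 0.02 and 0.54 in GFP, with -1.26 and 0.25 in untreated cells. None of the 24 passed in any comparison (edgeR). The kinase PLK1 stood at 131 and 141 CPM in CRNN, 190 and 152 CPM in GFP, and 35.2 and 106 CPM in untreated cells. In untreated replicate 1 the mean of the 5 E2F factors and G1/S regulators was 0.43. CCNE1 was at 0.99, CCNE2 at 1.01 and CDC25A at 0.82, but E2F1 at -0.05 and E2F2 at -0.6. The 3 nucleotide synthesis genes had a mean of -0.29, with TYMS at -0.65 and RRM1 and RRM2 at -0.11 each. Genes of the same role thus differed in untreated replicate 1. That library was the highest for CCNE1, CCNE2, CDC25A, CDC6, MCM10 and SLBP, 20% of the 30 genes, beside 27.1% of all tested genes. It was the lowest for E2F2, CDT1, RFC4, LIG1, RRM2, TYMS and CHAF1A, 23.3% of the 30, beside 26.3% of all tested genes. Both shares were below those of all tested genes. Without untreated replicate 1, the log2 fold changes of the 30 genes for CRNN over untreated ran from -0.31 to 0.22. Without untreated replicate 2 they ran from -1.18 to 0.82. The part of the mitotic difference in the values of CCNE1, CCNE2 and CDC25A was not tested.

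**Figure D4:**
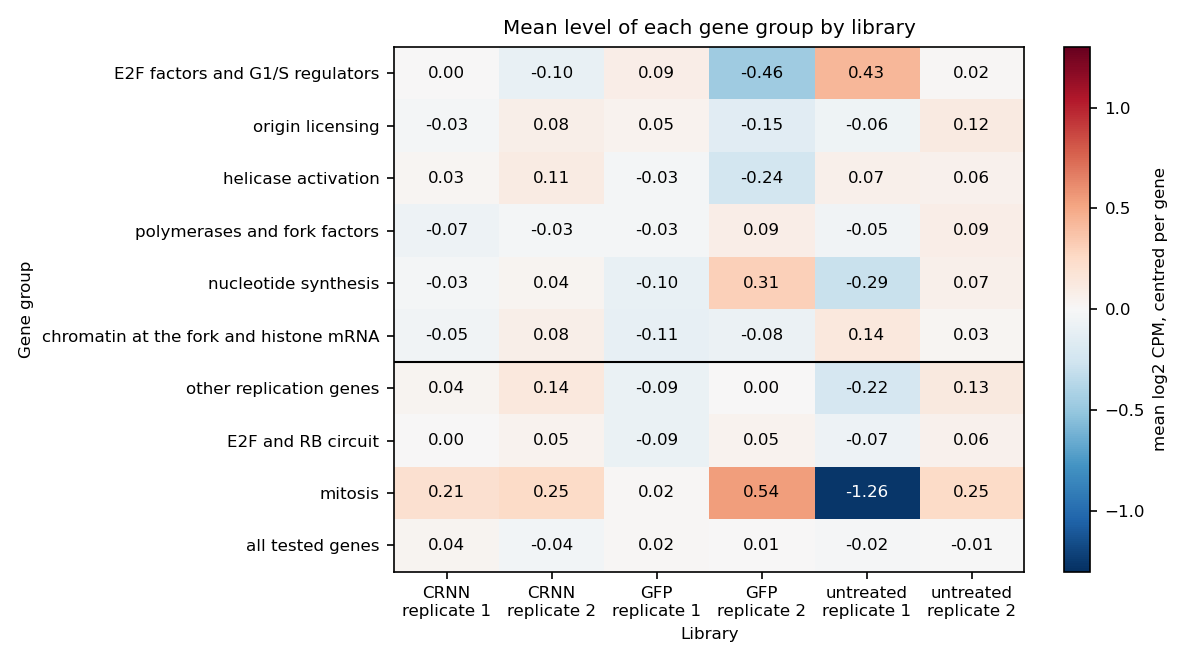
Mean log2 CPM, centred per gene over the 6 libraries, of each role of replication genes (upper rows) and of other gene groups and all tested genes (lower rows), one column per library. The mitotic genes reach -1.26 in untreated replicate 1, where the replication roles lie between -0.29 and 0.43.

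Other genes of replication outside the named set, 47 in number, were tested in the same fit, and 0 rose and 0 fell in each comparison (edgeR). Their median log2 fold change was 0.12 in CRNN over GFP, 0.09 in CRNN over untreated and 0 in GFP over untreated. TICRR, which brings CDC45 to origins, had the smallest p, with 47.8 and 38.5 CPM in CRNN, 69.5 and 59.5 CPM in GFP, and 24.5 and 40.2 CPM in untreated cells. Both GFP libraries were above the other 4, as for TYMS, and the log2 fold change was 1.00 (SE 0.31, adjusted p = 0.711) for GFP over untreated by edgeR. Without untreated replicate 1 it was 0.66, and without untreated replicate 2 it was 1.39. ORC3, a subunit of the origin recognition complex, was at 0.55 (SE 0.28) for CRNN over GFP, 0.35 without GFP replicate 1 and 0.83 without GFP replicate 2. POLE3, an accessory subunit of polymerase epsilon, was at 0.49 (SE 0.26) for CRNN over GFP, while the catalytic POLE was at -0.48. Without GFP replicate 1 POLE3 was at 0.63, and without GFP replicate 2 at 0.4. Of 16 genes of the E2F and RB circuit 0 passed as well (edgeR). E2F3, another E2F activator, had 15.3 and 13.0 CPM in CRNN, 18.4 and 16.8 CPM in GFP, and 30.2 and 18.1 CPM in untreated cells, again highest in untreated replicate 1. Its log2 fold change for CRNN over untreated was -0.77 (SE 0.31, adjusted p = 0.989) by edgeR. It was -0.35 without untreated replicate 1 and -1.09 without untreated replicate 2 (edgeR, adjusted p = 0.0593). CCNA2, the S phase and G2 cyclin, had 30.4 CPM in untreated replicate 1 and between 66.0 and 80.7 CPM in the other 5 libraries.

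The spread between replicates of the 30 genes was smallest in CRNN and largest in GFP. Their replicates had a median SD of 0.08 log2 CPM in CRNN, 0.23 in GFP and 0.18 in untreated cells, beside 0.13, 0.33 and 0.30 for all tested genes. In GFP the gap between the libraries followed the GC content of the transcript, as the plot of that gap shows. Members with GC-rich transcripts such as E2F1, MCM2, MCM5 and MCM7 were higher in GFP replicate 1, by 0.63, 0.60, 0.64 and 0.67 log2 CPM. Members with GC-poor transcripts such as RRM1 and CLSPN were higher in replicate 2, at -0.79 and -1.06. Some went the other way, such as CHAF1A (57.7% GC) at -0.14 and CCNE2 (34.6% GC) at 0.08. Across the 30 genes Spearman's rho between GC content and the GFP gap was 0.64, and across 15932 genes it was 0.52. It was 0.34 in CRNN and -0.20 in untreated cells across the 30. These points share the same 2 libraries and are a description. With each library's trend with GC content and length removed, rho in GFP was 0.06. That trend was fitted to these same libraries, so a rho near 0 was built in. The gap sizes after removal rest on the same fit and are no separate test. After removal 4 genes in place of 11 had a GFP gap over 0.5 log2 CPM, while in untreated cells the number stayed at 6. The median size of the GFP gap fell from 0.33 to 0.25, though it grew from 0.08 to 0.49 for CCNE2 and from 0.08 to 0.47 for GINS1. CCNE1, CDC25A and GINS2 still had gaps of 0.86, 0.66 and 0.68, and CLSPN of -0.65. The 30 genes had a median GC content of 48.7%, the same as all tested genes, and ranged from 34.6% to 64.3%.

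**Figure D5:**
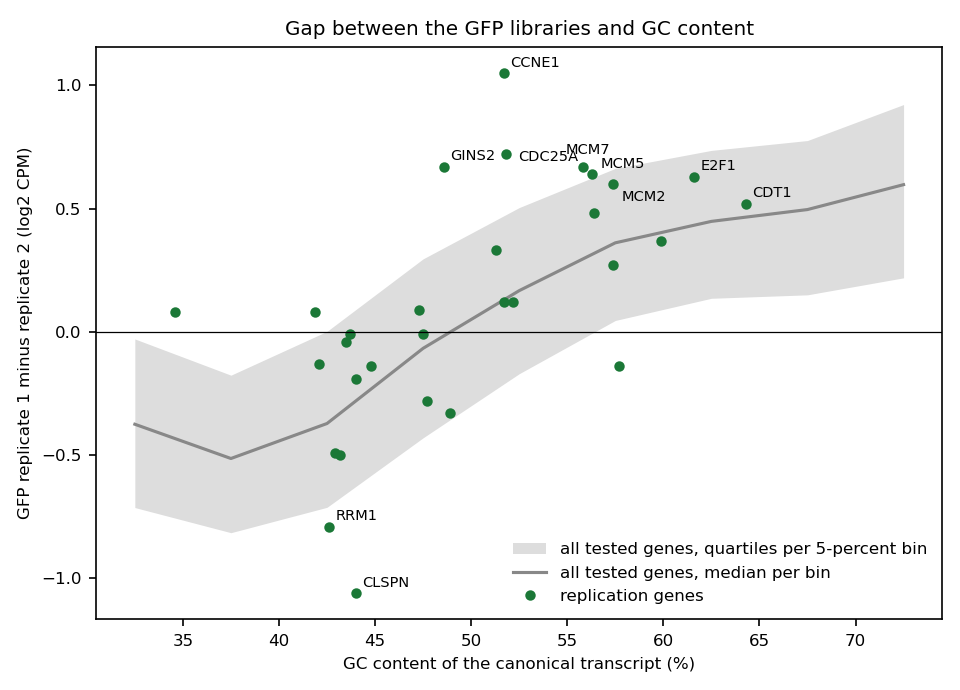
Difference between the 2 GFP libraries (replicate 1 minus replicate 2, log2 CPM) against GC content of the canonical transcript, for the 30 replication genes (points; the largest gaps are named) and for all tested genes (line and band, median and quartiles in bins of GC content). The points tend to rise with GC content along with the line, with exceptions; CLSPN is lowest at -1.06 and CCNE1 highest at 1.05.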

How the data were processed

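RNA was measured in 6 Cal27 libraries made with a stranded total RNA kit, per the labels' protocols. The authors deposited counts, whole-number reads per gene without normalization. Per the submitters' processing notes the tools included STAR 2.6 and HTSeq 0.6.1, besides FastQC 0.11.7, bcl2fastq and edgeR, with the builds hg19, GRCh37 and GRCh38, without the role of each. The annotation used for counting and its strand setting are not given in the sources used here. Names, coordinates, canonical transcript lengths and GC content came from GENCODE 44 (GRCh38), where 51996 of 57820 identifiers matched.

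Genes were kept by filterByExpr (minimum count 10, minimum total 15), which left 16396. One model of all 6 libraries was fitted in R 4.3.3 by edgeR 4.0.16 (TMM factors, quasi-likelihood F test, two-sided, no covariate). Adjustment was Benjamini-Hochberg across every gene tested, with calls under 0.05. The SE is the size of the log2 fold change over the square root of F, and intervals use the fit's degrees of freedom. They cover the spread between these libraries. The procedure was tested on simulated data. The 31 members, the other gene lists and the naming rule (all members, and up to 4 genes of each other list with the smallest p) were chosen with earlier results of these data known. Library totals of 11817105 to 28041227 put 3 counts at 0.115 to 0.239 CPM. Alternatives used limma 3.58.1, DESeq2 1.42.0, other scaling and filters, offsets for GC content and length (splines of 4 degrees of freedom), and each library left out in turn. Promoters were read from RefSeq.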

Additional observations from a re-analysis of the deposited data

How the results depend on the processing

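The 30 replication genes stayed uncalled in each comparison under 16 alternatives, except that CCNE2 passed as lower against untreated cells without untreated replicate 2, so that the number of members called lower ranged from 0 to 1 with a library left out in CRNN against untreated and in GFP against untreated. The number of all genes called moved more. In CRNN against GFP it was 3, with 34 without a filter on low counts, 22 by DESeq2, 13 with only these groups fitted, 1 with GC and length offsets, and 0 to 15 with a library left out. In CRNN against untreated it was 1, with 152 without a filter, 7 by DESeq2, and 1 to 957 with a library left out. In GFP against untreated it was 0 (1137 at an unadjusted p under 0.05), with 195 without a filter, 29 by DESeq2, and 0 to 966 with a library left out. The cause was not tested. Where a group was left with 1 library, that library was assumed to vary like the others.

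The members' median log2 fold change ranged with a library left out from 0.03 to 0.20 in CRNN against GFP, from -0.10 to 0.05 in CRNN against untreated, and from -0.22 to -0.03 in GFP against untreated. Up to 9 of 30 members changed sign then, and up to 7 under the other alternatives, none of them called. The labels do not say that replicate numbers pair libraries, and the correlation of their deviations across 11729 genes was 0.255 for CRNN with GFP, -0.071 for CRNN with untreated and 0.193 for GFP with untreated. With a replicate block, 4, 1 and 0 genes were called and 0 members, with member medians of 0.09, -0.03 and -0.13. The replicate block with GC and length offsets called 1 gene in CRNN against GFP. With 2 libraries a group, CCNE2 at -1.07 in GFP against untreated was not called (edgeR, adjusted p = 0.711).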
